A study of Rattus norvegicus with 16 samples.

Results

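The enzymes that remove superoxide and hydrogen peroxide were followed in rat extraocular muscle and in a second rat skeletal muscle, labelled TA. The set was given as a list of 10 genes: the superoxide dismutases Sod1, Sod2 and Sod3, catalase (Cat), the glutathione peroxidases Gpx1 and Gpx3, peroxiredoxin 1 (Prdx1), thioredoxin (Txn1), the quinone reductase Nqo1 and haem oxygenase 1 (Hmox1). A probe set, the group of short oligonucleotides that reads a transcript on these arrays, was a member when the platform table named it with a single symbol and that symbol was on the list. This gave 9 of the 4737 genes with a symbol of their own on the array, read by 19 of its 8799 probe sets. Txn1 was not analysed here. Of the 19 probe sets, 17 were bright enough to be tested.

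The study profiled 16 single-colour arrays, each hybridised with total RNA of rat skeletal muscle. EOM is extraocular muscle, with 4 arrays numbered 1 to 4 and no collection time in the labels. TA_6h is TA muscle collected at 6 hours (8 arrays, taken as 4 numbered samples), and TA_1h is TA muscle collected at 1 hour (4 arrays, taken as 2 numbered samples). The event from which the hours count, and the strain, age, sex and treatment of the animals, are not given in the labels. Nor do the labels say that a number marks an animal, so p-values cover the spread of these samples alone, and that spread can be technical. The muscle label of EOM was checked against Myh13 and Myh8, the myosins of extraocular and developing muscle. Their summed intensity was 14480 to 17023 on the EOM arrays, 128 to 501 in TA_6h and 193 to 503 in TA_1h.

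Superoxide is formed as a by-product of mitochondrial respiration and by dedicated oxidases. Superoxide dismutases turn it into hydrogen peroxide: Sod1 does so in the cytosol, Sod2 in the mitochondrial matrix and Sod3 outside the cell. The peroxide is then taken apart by catalase in peroxisomes, by glutathione peroxidases, which draw on glutathione, and by peroxiredoxins, which draw on thioredoxin. Nqo1 and Hmox1 belong to the wider antioxidant response and are textbook targets of the transcription factor Nrf2, encoded by Nfe2l2, which binds the antioxidant response element. Extraocular muscles move the eye almost without pause, are rich in mitochondria, and differ from limb muscle in which muscle diseases affect them.

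RefSeq promoter sequence of build GRCr8 was matched by symbol to 8 of the 10 listed genes: Sod1, Sod2, Cat, Gpx1, Gpx3, Prdx1, Txn1 and Nqo1. Sod3 and Hmox1 were not matched. Each sequence holds the 250 bases before the gene's start, 5′ to 3′ on the gene's strand. Capitals mark the core of the antioxidant response element (TGACNNNGC) and the Sp1 GC box (GGGCGG), each searched on both strands. The genes are Gpx3 at chr10:39529085-39529334 on the plus strand, Gpx1 at chr8:117905212-117905461 on the plus strand, Prdx1 at chr5:135383656-135383905 on the plus strand and Sod2 at chr1:50050169-50050418 on the minus strand. These 4 are shown because Gpx3, Gpx1 and Prdx1 are the peroxidases with a probe set called higher in EOM, and Sod2 shares the response element core with Prdx1.
Gpx3: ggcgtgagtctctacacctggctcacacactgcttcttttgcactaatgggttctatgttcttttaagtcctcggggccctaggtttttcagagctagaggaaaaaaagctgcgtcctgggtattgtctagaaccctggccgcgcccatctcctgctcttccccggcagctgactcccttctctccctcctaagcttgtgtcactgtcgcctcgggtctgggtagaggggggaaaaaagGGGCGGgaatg
Gpx1: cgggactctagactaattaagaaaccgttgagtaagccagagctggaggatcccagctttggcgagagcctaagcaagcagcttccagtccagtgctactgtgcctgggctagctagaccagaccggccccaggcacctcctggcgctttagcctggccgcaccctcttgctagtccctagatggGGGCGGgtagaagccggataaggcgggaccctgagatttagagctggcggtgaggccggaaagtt
Prdx1: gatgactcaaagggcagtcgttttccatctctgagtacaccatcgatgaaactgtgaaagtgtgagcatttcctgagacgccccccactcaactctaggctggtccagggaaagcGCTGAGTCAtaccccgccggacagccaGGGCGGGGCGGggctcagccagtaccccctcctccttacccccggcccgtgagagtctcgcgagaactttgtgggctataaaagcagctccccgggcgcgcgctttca
Sod2: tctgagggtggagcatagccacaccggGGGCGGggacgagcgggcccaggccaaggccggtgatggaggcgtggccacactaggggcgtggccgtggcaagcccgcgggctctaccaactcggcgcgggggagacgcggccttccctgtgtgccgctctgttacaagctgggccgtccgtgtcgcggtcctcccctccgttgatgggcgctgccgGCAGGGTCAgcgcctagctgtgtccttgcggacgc

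The response element core was found in 2 of the 8 promoters, those of Prdx1 and Sod2. Of 33469 RefSeq promoters of the same length, 10.1% held it. In Prdx1 it lay 135 to 127 bases before the start and in Sod2 35 to 27 bases before it, both on the minus strand. The Prdx1 match overlaps an AP-1 site (TGACTCA), which lay at 133 to 127 bases, and a second AP-1 site of Prdx1 lay at 248 to 242 bases. No other promoter of the 8 held that site, against 4.05% of all promoters. The GC box was found in 7 of the 8, all but Cat, against 30.5% of all promoters. These matches describe letters in a window and were not measured as binding.

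Some properties of the arrays touch every value that follows. Of the EOM intensities, 23.2 to 25.4% per array lie at or below 0, whereas no TA intensity does. The way probes were summarised into probe sets is not given in the labels, so for EOM against TA the muscle and the summary step cannot be told apart. In whole muscle, fewer cells of a type and less RNA per cell cannot be told apart either. On both arrays of TA_6h replicates 3 and 4 and on TA_1h array 2b, 5 TA arrays in all, the ratio of the middle to the 3′ beta-actin control probe set, a control for how far labelling reached into a transcript, was 0.146 to 0.390. The remaining 7 TA arrays gave 0.815 to 1.28, and the EOM arrays gave 0.891 to 0.978. The same ratio for Gapdh divided the TA arrays differently. It was 0.161 to 0.399 on TA_1h 1a and 2a and TA_6h 1b and 2b, none of which had a low actin ratio. EOM gave 0.882 to 0.928 for Gapdh, and the 8 TA arrays left gave 0.788 to 1.52. The 5 arrays of low actin ratio had Gapdh ratios of 0.959 to 1.52, and "low-ratio" below means the actin ratio only. The array TA_1h 2b correlated best, over all tested probe sets, with TA_6h 3b (r = 0.932) and TA_6h 3a (r = 0.927), above its r of 0.899 with its own partner TA_1h 2a. Results for EOM are therefore also given against the 7 other TA arrays alone, against the 5 low-ratio arrays alone, and with the low ratio as a term in the fit over single arrays. For TA_6h these subsets are replicates 1 and 2 alone and replicates 3 and 4 alone. There the ratio and the sample cannot be told apart. The fit with the term counts the arrays of 1 number as separate samples, so its p-values can overstate the precision. Where the 4 arrays of low Gapdh ratio change a call when left out, that value is given too, a setting chosen after seeing the data. Among the low-ratio arrays TA_1h is array 2b alone, so its values there are given as values of 1 array, with no p. Leaving out either TA_1h sample also leaves 1, and limma then assumes that the lone sample varies like those of the other groups.

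Intensities under a floor of 56.5, the 25th percentile of all values, were raised to it before log2 was taken. Differences were tested with limma on numbered samples, and every adjusted p below is its Benjamini-Hochberg value over all 7640 probe sets tested, with a call at an adjusted p under 0.05. Intensities are given with the SD over numbered samples, log2 differences with the limma standard error. Folds are on the floored log2 scale.

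Compared with TA_6h, 7 of the 17 tested member probe sets were called: 6 higher in EOM and 1 lower. Over all tested probe sets 47.2% were called, 21.9% higher and 25.3% lower. The members called higher were Sod3, Cat, Gpx1, Gpx3 (2 probe sets) and Prdx1, and the member called lower was a dim Hmox1 probe set. Compared with TA_1h, 5 of 17 were called, all higher: Sod3, Gpx3 (2 probe sets), Prdx1 and a second Hmox1 probe set. There the share over all tested probe sets was 37.2%, with 17.7% higher and 19.5% lower. The share of members called in either direction was thus near the background in both comparisons. The median log2 difference of the 17 was 0.50 against TA_6h and 0.37 against TA_1h, and the median of all tested probe sets was −0.11 and −0.09. These medians were not matched for brightness. Of 4041 probe sets over the floor on all 16 arrays, 1136 were called higher and 791 lower than TA_6h, and 923 and 589 than TA_1h. Of the 14 members among them, 6 and 5 were called higher and 0 lower. Both comparisons use the same EOM samples. With each gene read by its brightest probe set, 4 of 9 genes were called higher and none lower in each.

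**Figure D1:**
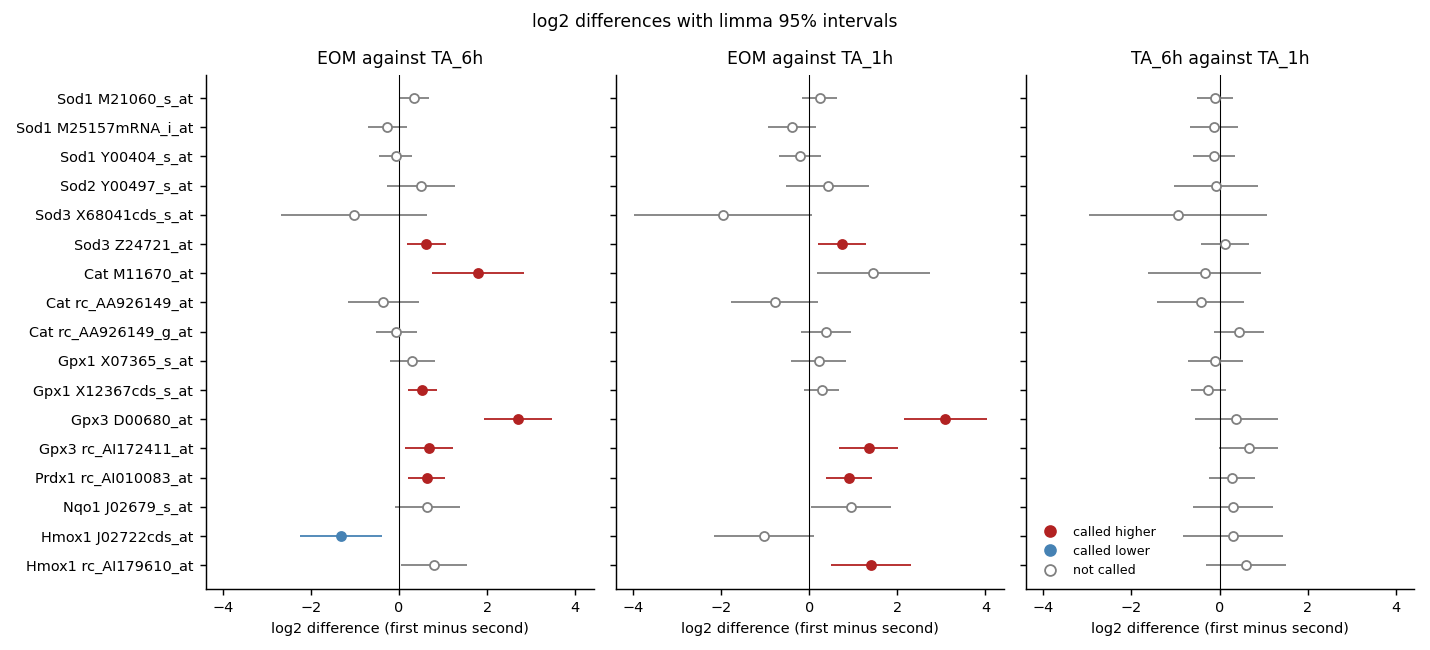
Log2 difference of each tested member probe set (points, with 95% intervals from limma) for EOM minus TA_6h, EOM minus TA_1h and TA_6h minus TA_1h, with filled coloured points for calls at an adjusted p under 0.05. Gpx3 D00680_at stands farthest to the right in both EOM comparisons, at 2.70 and 3.08, and no point is filled in the comparison of the TA groups.

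Gpx3, a selenium-containing glutathione peroxidase that is secreted and found in plasma, had the largest difference of the set. Its probe set D00680_at had an intensity of 7356, 5186, 7134 and 5678 on the EOM arrays. In TA_6h it ran from 607 to 2067 with a median of 964, and in TA_1h it was 1153, 1021, 1381 and 184. Every EOM array was above every TA array. The mean was 6338 ± 1070 (SD, n = 4) in EOM, 1050 ± 486 (SD, n = 4) in TA_6h and 935 ± 215 (SD, n = 2) in TA_1h, and the TA_1h array at 184 is the low-ratio array 2b. Gpx3 D00680_at was 6.51-fold higher in EOM than in TA_6h (log2 2.70 ± 0.34, limma adjusted p = 0.000164). Against TA_1h it was 8.47-fold higher (log2 3.08 ± 0.42, limma adjusted p = 0.000371).

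The TA level of this Gpx3 probe set moved with the actin ratio. It was 184 to 769 on the 5 low-ratio arrays and 1021 to 2067 on the other 7, with no overlap. Against the 7 other arrays alone the log2 difference was 2.18 from TA_6h and 2.36 from TA_1h (limma adjusted p = 0.00034 and 0.000212). Against the low-ratio arrays alone it was 3.22 and 5.09, the latter against the single array TA_1h 2b. The call held in all 27 alternatives in both comparisons.

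The second Gpx3 probe set, rc_AI172411_at, gave the same direction with a smaller difference. Its EOM arrays read 11440, 10937, 11396 and 12401. TA_6h ran from 4620 to 10406 with a median of 7268, and TA_1h read 5387, 5812, 3771 and 3582, so that no TA array reached the lowest EOM array. It was 1.60-fold higher than TA_6h (log2 0.68 ± 0.24, limma adjusted p = 0.043) and 2.54-fold higher than TA_1h (log2 1.35 ± 0.30, limma adjusted p = 0.00597). The TA_6h arrays split by sample here: replicates 3 and 4, the low-ratio arrays, read 8043 to 10406, and replicates 1 and 2 read 4620 to 6492. In this probe set the low-ratio arrays of TA_6h were thus the higher ones, opposite to D00680_at. The difference from TA_6h was 1.08 against the other arrays alone (limma adjusted p = 0.00241) and 0.28 against the low-ratio arrays alone (limma adjusted p = 0.1). The call of Gpx3 rc_AI172411_at against TA_6h ended with no filter on dim probe sets (0.68, limma adjusted p = 0.0536) and without the TA arrays of low Gapdh ratio (0.75, limma adjusted p = 0.0595). It also ended when any single EOM sample, or TA_6h replicate 1 or 2, was left out, with differences of 0.55 to 0.71 and limma adjusted p from 0.0661 to 0.107. That against TA_1h ended without TA_1h replicate 2 (1.04, limma adjusted p = 0.0743).

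Gpx1 is the glutathione peroxidase of the cytosol and mitochondria and also carries selenium. Of its 3 probe sets, X12367cds_s_at was called higher against TA_6h. It read 14393, 13771, 14637 and 15884 in EOM, 9018 to 11535 with a median of 10202 in TA_6h, and 11451, 10898, 12360 and 13791 in TA_1h. The EOM arrays were all above the TA_6h arrays, while the highest TA_1h array, 2b, lay just above the lowest EOM array. The EOM mean was 14671 ± 887 (SD, n = 4) and the TA_6h mean 10178 ± 925 (SD, n = 4). Gpx1 X12367cds_s_at was thus 1.44-fold higher (log2 0.53 ± 0.14, limma adjusted p = 0.0127), and it kept its call in all 27 alternatives. Against TA_1h the difference was 0.28 ± 0.18 and was not called (limma adjusted p = 0.244), but with quantile normalization Gpx1 X12367cds_s_at was called there as well (0.60, limma adjusted p = 0.0341).

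Gpx1 X07365_s_at read 12993, 13064, 12376 and 14574 in EOM, 7149 to 13598 with a median of 10939 in TA_6h, and 8235, 8727, 11382 and 20925 in TA_1h. The groups overlapped, and neither comparison was called (log2 0.30 ± 0.23 and 0.21 ± 0.28, limma adjusted p = 0.295 and 0.593). The low-ratio arrays were again apart, at 11814 to 20925 and the remaining TA arrays at 7149 to 11382. Against those other arrays alone EOM was higher than TA_6h by 0.57 (limma adjusted p = 0.0251), with the low ratio as a term by 0.65 (limma adjusted p = 0.005), and with quantile normalization by 0.51 (limma adjusted p = 0.0371). Against the low-ratio array of TA_1h, which read 20925, the value was −0.66. The remaining Gpx1 probe set, M21210_i_at, did not rise above the floor on any array. It read −597, −830, −782 and −835 in EOM and between 18.0 and 36.5 in TA, and was not tested.

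Prdx1, a cytosolic peroxiredoxin that thioredoxin recycles, was read by a single probe set. It gave 5548, 6339, 5818 and 4854 in EOM. TA_6h ran from 2881 to 4527 with a median of 3671, and TA_1h read 2738, 2280, 3463 and 3695. All EOM arrays were above all TA arrays. The means were 5639 ± 618 (SD, n = 4), 3689 ± 659 (SD, n = 4) and 3044 ± 756 (SD, n = 2). Prdx1 was 1.54-fold higher than in TA_6h (log2 0.62 ± 0.19, limma adjusted p = 0.0221) and 1.88-fold higher than in TA_1h (log2 0.91 ± 0.23, limma adjusted p = 0.0125).

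The low-ratio arrays read higher for Prdx1, at 3695 to 4527, while the remaining TA arrays read 2280 to 3463. Its difference from TA_6h was 0.84 against the other arrays (limma adjusted p = 0.00766) and 0.41 against the low-ratio arrays (limma adjusted p = 0.0582). The call against TA_6h ended without EOM replicate 2 or 3 or without TA_6h replicate 1 or 2, where Prdx1 differed by 0.55 to 0.61 with limma adjusted p from 0.0515 to 0.0556. That against TA_1h ended without TA_1h replicate 1 (0.65, limma adjusted p = 0.13) and with the replicate block (0.84, limma adjusted p = 0.0558).

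Catalase, the peroxisomal enzyme that splits hydrogen peroxide into water and oxygen, was read by 3 probe sets that did not give the same picture. M11670_at read 1279, 2600, 1808 and 1546 in EOM. It ran from 220 to 1215 with a median of 557 in TA_6h, and read 1195, 819, 1014 and 167 in TA_1h. The lowest EOM array was above the highest TA array. The EOM mean of 1808 ± 570 (SD, n = 4) was 3.45-fold above the TA_6h mean of 595 ± 346 (SD, n = 4) on the floored scale (log2 1.79 ± 0.47, limma adjusted p = 0.0108). Against TA_1h Cat M11670_at differed by 1.45 ± 0.57 and was not called (limma adjusted p = 0.0723), although leaving out TA_6h replicate 4, which shares the estimate of the spread, brought a call (1.45, limma adjusted p = 0.0412), as did the replicate block (1.87, limma adjusted p = 0.043). A call also came with equal medians on all arrays (1.55, limma adjusted p = 0.0383), with a fit of the 2 groups alone (1.45, limma adjusted p = 0.0493), and without the TA arrays of low Gapdh ratio (2.24, limma adjusted p = 0.0413).

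On TA arrays this catalase probe set divided with the actin ratio. It was 167 to 413 on the 5 low-ratio TA arrays and 701 to 1215 on the other 7. The difference between EOM and TA_6h was 1.01 against the other arrays (limma adjusted p = 0.0208) and 2.57 against the low-ratio arrays (limma adjusted p = 0.00236). Both were called, and the call held in all 27 alternatives. For TA_1h the difference was 0.80 against the other arrays (limma adjusted p = 0.0466), 0.99 with the low ratio as a term (limma adjusted p = 0.0114) and 3.39 against the low-ratio array.

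The other catalase probe sets come from a single expressed sequence tag. Cat rc_AA926149_g_at read 1365, 1945, 1787 and 1185 in EOM, 1217 to 1940 with a median of 1736 in TA_6h, and 1281, 983, 1592 and 1004 in TA_1h. These ranges overlapped throughout, and the differences of −0.06 ± 0.21 and 0.37 ± 0.25 were not called (limma adjusted p = 0.819 and 0.286). Cat rc_AA926149_at was dim, at 70.2 to 114 in EOM, 12.2 to 270 in TA_6h and 33 to 293 in TA_1h, and was not called either (limma adjusted p = 0.434 and 0.191). In a fit of the 2 groups alone Cat rc_AA926149_at was called lower than TA_1h (−0.79, limma adjusted p = 0.0494). The catalase difference thus rests on M11670_at.

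**Figure D2:**
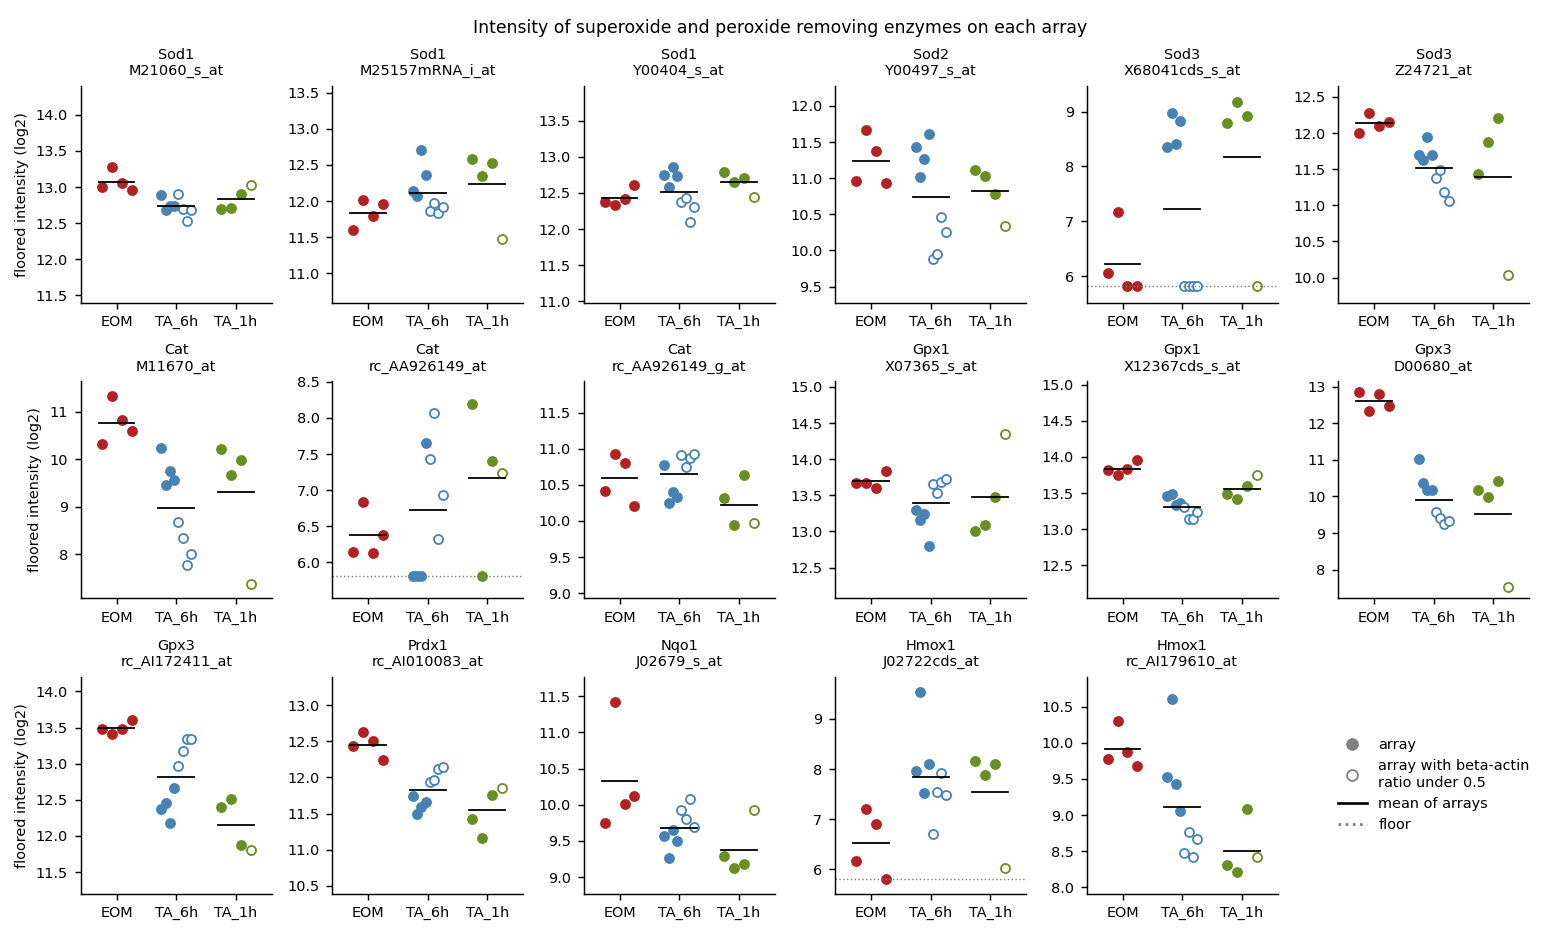
Floored log2 intensity of the 17 tested member probe sets on each of the 16 arrays, by group, with open points for the 5 low-ratio TA arrays, a black line at the mean of the arrays and, where in range, a dotted line at the floor of 56.5. The vertical scale differs between panels. For Gpx3 and Prdx1 every EOM point lies above every TA point, whereas Sod1 Y00404_s_at and Sod2 overlap between all groups.

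Among the superoxide dismutases, Sod3 was the member called. Sod3 Z24721_at read 4117, 4943, 4378 and 4557 in EOM. TA_6h ran from 2138 to 3949 with a median of 3014, and TA_1h read 2769, 3741, 4729 and 1052. EOM did not overlap TA_6h but did overlap TA_1h, whose arrays 2a and 2b, the pair of a single number, were its highest and lowest. The mean was 4499 ± 347 (SD, n = 4) in EOM, 2971 ± 608 (SD, n = 4) in TA_6h and 3073 ± 258 (SD, n = 2) in TA_1h. The difference was 1.54-fold from TA_6h (log2 0.62 ± 0.20, limma adjusted p = 0.0258) and 1.68-fold from TA_1h (log2 0.74 ± 0.24, limma adjusted p = 0.0345).

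These Sod3 calls ended in 11 of the 27 alternatives against TA_6h and in 12 against TA_1h. Against the other TA arrays alone the differences were 0.39 and 0.20 (limma adjusted p = 0.121 and 0.394), and against the low-ratio arrays of TA_6h 0.85 (limma adjusted p = 0.00435). Against TA_1h array 2b, which read 1052, the value was 2.09. Without the TA arrays of low Gapdh ratio the differences were 0.58 and 1.18 (limma adjusted p = 0.219 and 0.0638). With the low ratio as a term they were 0.21 and 0.54 (limma adjusted p = 0.498 and 0.0942). The call against TA_6h ended without EOM replicate 2, 3 or 4 or TA_6h replicate 3 or 4, where Sod3 Z24721_at differed by 0.49 to 0.63 with limma adjusted p from 0.0519 to 0.0609. That against TA_1h ended without any single EOM sample, with differences of 0.70 to 0.79 and limma adjusted p from 0.0505 to 0.0678, and without TA_1h replicate 2 (0.48, limma adjusted p = 0.27). With each array as its own sample the Sod3 Z24721_at differences were 0.62 and 0.74 (limma adjusted p = 0.0998 and 0.0991), and with a random block for the number the same sizes had a limma adjusted p of 0.156 and 0.17. Quantile normalization ended the call of Sod3 Z24721_at against TA_1h (0.62, limma adjusted p = 0.0536). With the replicate block both calls of Sod3 Z24721_at ended (0.62 and 0.86, limma adjusted p = 0.0517 and 0.0558).

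A second Sod3 probe set, X68041cds_s_at, ran the other way. It read 66.3, 143, −12.2 and −27.0 in EOM, the last pair under the floor. In TA_6h it read 326 to 503 on replicates 1 and 2 and 37.7 to 55.8 on replicates 3 and 4, and in TA_1h it read 444, 577, 487 and 38.3. All 5 low-ratio arrays were thus under the floor and all 7 others far above it. The difference was −1.02 ± 0.74 from TA_6h and −1.97 ± 0.91 from TA_1h, neither called (limma adjusted p = 0.281 and 0.118). With 2 of the 4 EOM arrays set to the floor, all sizes given for this probe set against higher TA arrays are lower limits. This takes their values below 0 as low signal. Without the low-ratio arrays EOM was lower by −2.43 and −2.74 (limma adjusted p = 0.00218 and 0.00113), and with the low ratio as a term by −2.47 and −2.69 (limma adjusted p = 9.39e-07 and 7.54e-07). The fit with that term counts each array as a sample. The arrays set to the floor also add no spread, so its p-values overstate the precision. Sod3 X68041cds_s_at was also called lower than TA_1h with a floor at the 40th percentile (−1.40, limma adjusted p = 0.0459) and in a fit of the 2 groups alone (−1.97, limma adjusted p = 0.049). The Sod3 probe sets therefore disagreed in direction, and the files do not say which part of the transcript each reads.

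Sod1, the copper and zinc enzyme of the cytosol, was not called by any of its 3 probe sets. M21060_s_at read 8209, 9943, 8493 and 7942 in EOM, 5894 to 7636 with a median of 6746 in TA_6h, and 6658, 6721, 7628 and 8375 in TA_1h. EOM was above all TA_6h arrays but overlapped TA_1h. Sod1 M21060_s_at differed by 0.34 ± 0.15 from TA_6h, with a 95% interval of 0.01 to 0.67 (limma adjusted p = 0.0825), and by 0.24 ± 0.18 from TA_1h (limma adjusted p = 0.337). With no filter, with each array as its own sample, with an intensity trend or with the low ratio as a term, the adjusted p from limma against TA_6h was 0.0192 to 0.0487 and the size 0.34 to 0.35.

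The other Sod1 probe sets lay on the other side of 0. M25157mRNA_i_at read 3098, 4121, 3547 and 3990 in EOM, 3669 to 6708 with a median of 4171 in TA_6h, and 6142, 5187, 5909 and 2860 in TA_1h, with differences of −0.27 ± 0.20 and −0.39 ± 0.24 (limma adjusted p = 0.288 and 0.236). Without the low-ratio arrays it was lower by −0.48 and −0.66 (limma adjusted p = 0.0649 and 0.0214), and with the low ratio as a term by −0.56 and −0.54 (limma adjusted p = 0.0149 and 0.0255). Y00404_s_at read 5299, 5180, 5482 and 6275 in EOM, 4400 to 7463 with a median of 5849 in TA_6h, and 7060, 6439, 6669 and 5569 in TA_1h. Its differences were −0.08 ± 0.17 and −0.21 ± 0.21 (limma adjusted p = 0.715 and 0.469), inside the spread of the samples.

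Sod2, the manganese enzyme of mitochondria, read 1996, 3261, 2661 and 1963 in EOM. TA_6h ran from 948 to 3122 with a median of 1744 and TA_1h read 2226, 2102, 1761 and 1293, so that all 3 groups overlapped. Its differences were 0.50 ± 0.35 and 0.42 ± 0.42 and were not called (limma adjusted p = 0.258 and 0.476). The TA values of Sod2 split with the actin ratio, at 948 to 1410 on the low-ratio arrays and 1761 to 3122 on the others. The difference from TA_6h was −0.10 against the other arrays (limma adjusted p = 0.77) and 1.10 against the low-ratio arrays (limma adjusted p = 0.0209). The direction of Sod2 thus changed with the TA arrays used.

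Hmox1, which breaks down haem and is induced by oxidative stress, gave opposite directions by probe set. The brighter probe set, rc_AI179610_at, read 877, 1264, 940 and 817 in EOM, 341 to 1563 with a median of 482 in TA_6h, and 317, 297, 543 and 344 in TA_1h. EOM was above all TA_1h arrays, and within TA_6h array 1b alone exceeded the highest EOM array. It was 2.64-fold higher than in TA_1h (log2 1.40 ± 0.41, limma adjusted p = 0.0217). Against TA_6h the difference was 0.79 ± 0.33 (limma adjusted p = 0.0743). It was called without TA_6h replicate 1, which holds array 1b (1.11, limma adjusted p = 0.00637), and against the low-ratio arrays alone (1.33, limma adjusted p = 0.00362), and was 0.25 against the other arrays (limma adjusted p = 0.561). With all arrays set to the same median, Hmox1 rc_AI179610_at was called higher than TA_6h (0.90, limma adjusted p = 0.0383), and likewise when arrays of low Gapdh ratio were left out (0.88, limma adjusted p = 0.0275). Its call against TA_1h ended without TA_1h replicate 1 (1.15, limma adjusted p = 0.159) or replicate 2 (1.65, limma adjusted p = 0.0557).

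The dimmer Hmox1 probe set, J02722cds_at, read 71.6, 148, 120 and −87.4 in EOM, so that 1 of the 4 arrays lay under the floor. It read 104 to 743 with a median of 215 in TA_6h and 288, 235, 276 and 65.6 in TA_1h, and the ranges overlapped. It was 2.50-fold lower in EOM than in TA_6h (log2 −1.32 ± 0.41, limma adjusted p = 0.0244). This size depends on the floor and on EOM replicate 4, the array under it. It is a lower limit only if that array's value below 0 is taken as low signal. Against TA_1h it was −1.02 ± 0.51 (limma adjusted p = 0.144). Without the low-ratio arrays it was called lower in both comparisons (−1.76 and −1.54, limma adjusted p = 0.0158 and 0.0259), as it was with the low ratio as a term (−1.92 and −1.32, limma adjusted p = 0.00111 and 0.0198). The call for Hmox1 J02722cds_at ended without EOM replicate 1 (−1.20, limma adjusted p = 0.0628), EOM replicate 4 (−1.09, limma adjusted p = 0.0671) or TA_6h replicate 1 (−1.02, limma adjusted p = 0.0592). It also ended with quantile normalization (−1.06, limma adjusted p = 0.0577), with a floor at the 10th percentile (−1.83, limma adjusted p = 0.0551), against the low-ratio arrays alone (−0.89, limma adjusted p = 0.164) and without the TA arrays of low Gapdh ratio (−1.06, limma adjusted p = 0.0787).

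Nqo1, which reduces quinones by a pair of electrons and so keeps them from forming superoxide, was not called. J02679_s_at read 864, 2739, 1030 and 1117 in EOM, 614 to 1079 with a median of 817 in TA_6h, and 626, 557, 581 and 973 in TA_1h. EOM replicate 2 was far above the other 3 EOM arrays, and the lowest of these lay inside the range of both TA groups. Its differences were 0.64 ± 0.33 and 0.95 ± 0.41 (limma adjusted p = 0.14 and 0.097). With the low ratio as a term Nqo1 was called against both (0.88 and 1.07, limma adjusted p = 0.0122 and 0.00551), in a fit that counts each array as a sample. With each array as its own sample and no such term, Nqo1 J02679_s_at was called against TA_1h (0.95, limma adjusted p = 0.0212), also with a random block for the number (limma adjusted p = 0.0352). The other Nqo1 probe set, M58495mRNA_at, stayed under the floor on all arrays, at −87.6 to 33.8 in EOM and 10.6 to 56.0 in TA, and was not tested.

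Within TA, several members divided with the beta-actin ratio. In 9 of the 17 tested member probe sets the 5 low-ratio arrays and the 7 others did not overlap, whereas the same held for 13.4% of all tested probe sets. On the low-ratio arrays 6 of the 9 were lower and 3 higher. The lower ones were Sod3 X68041cds_s_at (log2 −2.96), Cat M11670_at (−1.81), Gpx3 D00680_at (−1.31), Sod2 (−1.0), Sod1 M25157mRNA_i_at (−0.57) and Sod1 Y00404_s_at (−0.39). The higher ones were Gpx1 X07365_s_at (0.64), Nqo1 J02679_s_at (0.52) and Prdx1 (0.46). Probe sets of the same gene parted here: Gpx1 X12367cds_s_at and Gpx3 rc_AI172411_at overlapped between the 2 sets of arrays. The low-ratio arrays of TA_6h are those of replicates 3 and 4, so arrays of the same sample are counted here more than once. These groups of arrays were drawn by a control probe set and not by the study, so the differences are descriptions without a test.

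**Figure D3:**
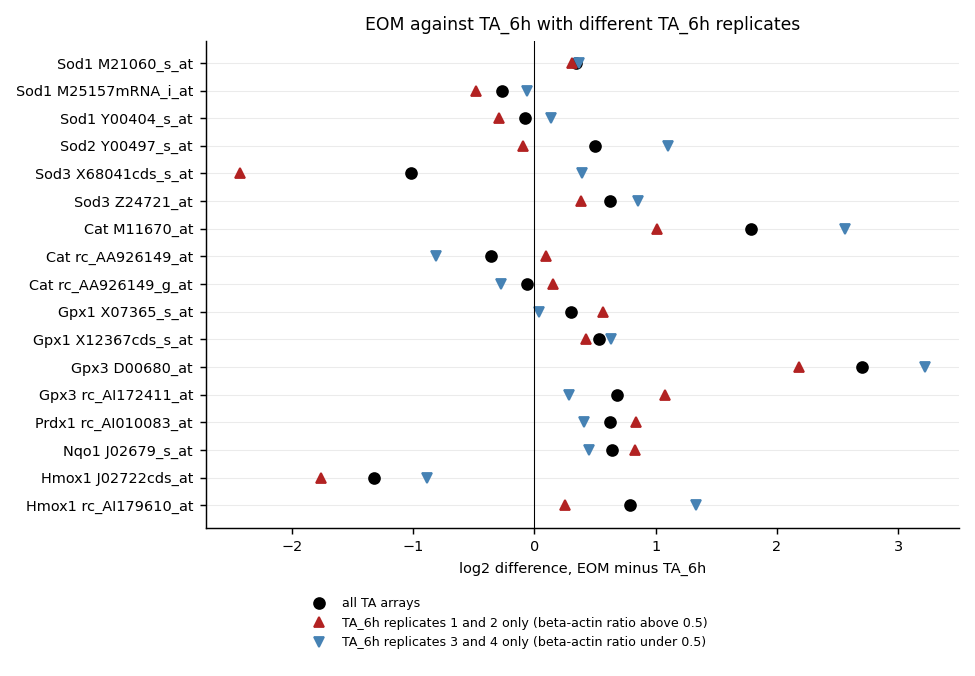
Log2 difference of the 17 tested member probe sets, EOM minus TA_6h, with all TA arrays (circles), without the low-ratio TA arrays (upward triangles) and with those arrays alone as TA (downward triangles). Gpx3 D00680_at lies between 2.18 and 3.22, Cat M11670_at between 1.01 and 2.57, and Sod2 between −0.10 and 1.10.

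The third comparison asked whether the collection time of TA went with a difference. None of the 17 tested member probe sets was called between TA_6h and TA_1h by limma, none had an unadjusted p under 0.05, and 0 of all 7640 probe sets were called (0%), with 424 at an unadjusted p under 0.05. The lowest unadjusted p was that of Gpx3 rc_AI172411_at, 0.0506, with a difference of 0.67 ± 0.30 (limma adjusted p = 0.885). Gpx3 D00680_at differed by 0.38 ± 0.42, Prdx1 by 0.28 ± 0.23 and Cat M11670_at by −0.34 ± 0.57. With 4 numbered samples against 2 these errors leave room for differences of that size. Among the low-ratio arrays the 4 of TA_6h stood above TA_1h array 2b by 1.24 in Sod3 Z24721_at, 1.86 in Gpx3 D00680_at and 1.40 in Gpx3 rc_AI172411_at, differences from 1 array that are given without a test.

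The genes around the set were followed in a list of 47: glutathione, thioredoxin and peroxiredoxin partners, suppliers of NADPH, haem and iron handling, and sources of superoxide and peroxide. Of these, 28 were on the array. Read by the brightest probe set, 5 were higher in EOM than in TA_6h, 9 were lower and 14 were not called, with a median log2 difference of −0.15. Against TA_1h 6 were higher, 6 lower and 16 not called, with a median of −0.19. The share called, 14 of 28 against TA_6h and 12 of 28 against TA_1h, was again close to that of all probe sets, and no gene of the list was called between the TA groups.

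Among sources of peroxide and superoxide, Maob and Xdh were higher in EOM. Monoamine oxidase B, an outer mitochondrial membrane enzyme that releases hydrogen peroxide, was at 908 ± 105 (SD, n = 4) in EOM, 157 ± 16.2 (SD, n = 4) in TA_6h and 126 ± 24.1 (SD, n = 2) in TA_1h. Maob was 5.79-fold and 7.34-fold higher (limma adjusted p = 2.45e-06 and 7.2e-06). Xanthine dehydrogenase (Xdh), which can form superoxide in its oxidase form, was at 2092 ± 623, 942 ± 92.4 and 724 ± 18.1, 2.17-fold and 2.84-fold higher (limma adjusted p = 0.00166 and 0.0013).

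Of the NADPH suppliers, Idh1 was higher while Idh2 and Me1 were lower. Cytosolic isocitrate dehydrogenase (Idh1) was at 2928 ± 356 in EOM, 648 ± 231 in TA_6h and 526 ± 13.0 in TA_1h, 4.77-fold and 5.82-fold higher (limma adjusted p = 3.97e-05 and 0.000112). The mitochondrial Idh2 was at 11559 ± 814, 19023 ± 3557 and 22252 ± 344, 1.60-fold and 1.92-fold lower by rc_AA891785_g_at (limma adjusted p = 0.0058 and 0.00367). Its other probe set was called lower against TA_6h (limma adjusted p = 0.0235) and not against TA_1h (limma adjusted p = 0.123). Malic enzyme 1 (Me1) was 3.26-fold and 3.11-fold lower by rc_AI008020_at, at 1144 ± 332 against 3697 ± 833 and 3458 ± 44.0 (limma adjusted p = 0.000243 and 0.00151). Of the other 4 Me1 probe sets, 3 were called in neither comparison.

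The selenoproteins outside the set went in different directions. Selenop, the secreted selenium carrier, was at 12231 ± 1382 in EOM, 2734 ± 732 in TA_6h and 2182 ± 131 in TA_1h, 4.60-fold and 5.72-fold higher (limma adjusted p = 2.21e-05 and 5.62e-05). Selenow, a small selenoprotein abundant in muscle, was at 5418 ± 1575, 16286 ± 5386 and 12344 ± 2172, 2.95-fold and 2.32-fold lower (limma adjusted p = 0.00133 and 0.0195). The Selenow call against TA_1h ended without TA_1h replicate 1 (−1.39, limma adjusted p = 0.0574) or replicate 2 (−1.03, limma adjusted p = 0.139), and with all arrays at the same median (−1.11, limma adjusted p = 0.0503). Gpx2, the glutathione peroxidase of the gut lining, exceeded the floor on 1 EOM array, so its size is set by the floor. It was called lower in both comparisons (limma adjusted p = 0.0169 and 0.0408) at means of 122 ± 42.3 and 111 ± 3.74 in the TA groups. Of 25 alternatives that tested it, 8 ended the call against TA_6h and 15 that against TA_1h. Its call against TA_1h ended when any of the 4 EOM samples, either TA_1h sample or TA_6h replicate 2 was left out (−0.96 to −0.86, limma adjusted p = 0.053 to 0.164). The call of Gpx2 against TA_6h ended without the low-ratio arrays (−0.48, limma adjusted p = 0.111) and without those of low Gapdh ratio (−0.59, limma adjusted p = 0.191).

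Nfe2l2, the gene of Nrf2, was higher by both of its probe sets, which come from a single expressed sequence tag. By rc_AI177161_g_at it was at 798 ± 47.4 in EOM, 268 ± 49.5 in TA_6h and 194 ± 12.3 in TA_1h, 3.05-fold and 4.20-fold higher (limma adjusted p = 4.56e-05 and 5.58e-05). By rc_AI177161_at it was 2.09-fold and 2.28-fold higher (limma adjusted p = 0.00609 and 0.0126), and the latter call of Nfe2l2 ended without TA_1h replicate 1 (1.29, limma adjusted p = 0.0515) or replicate 2 (1.08, limma adjusted p = 0.0911). Gclm, the modifier subunit of the enzyme that starts glutathione synthesis, was called higher by the dim rc_AI233261_i_at (157 ± 27.0 against 98.2 ± 7.49 and 91.5 ± 21.3, limma adjusted p = 0.0122 and 0.0187) and not by its other 2 probe sets. That Gclm call against TA_1h ended without TA_1h replicate 1 (0.54, limma adjusted p = 0.173) and without the TA arrays of low Gapdh ratio (0.59, limma adjusted p = 0.0867).

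Of the other partners, 3 were lower in EOM. Biliverdin reductase A (Blvra), which acts on the product of haem oxygenase, was at 123 ± 53.5 in EOM with 3 of 4 arrays above the floor, and at 921 ± 109 and 1113 ± 235 in the TA groups, 7.92-fold and 9.47-fold lower (limma adjusted p = 5.3e-05 and 0.000179). Glutathione synthetase (Gss) by L38615_g_at was under the floor on all EOM arrays, at −833 ± 530, and at 777 ± 399 and 475 ± 41.3 in the TA groups. It was at least 12.3-fold and 8.01-fold lower, a bound set by the floor (limma adjusted p = 1.65e-05 and 0.000289). The mitochondrial thioredoxin reductase Txnrd2 by AF072865_at was likewise under the floor in EOM, at −2011 ± 345, and at 1154 ± 179 and 1159 ± 248 in the TA groups. It was at least 20.1-fold and 20.2-fold lower (limma adjusted p = 1.23e-07 and 8.67e-07). For these Gss and Txnrd2 probe sets every EOM value was set to the floor, so the p-values hold no spread of EOM. The bounds also take a value below 0 as low signal, and such values occur in EOM alone. The second Txnrd2 probe set, which exceeded the floor throughout EOM, differed by −0.56 and −0.63 and was not called (limma adjusted p = 0.0723 and 0.11).

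**Figure D4:**
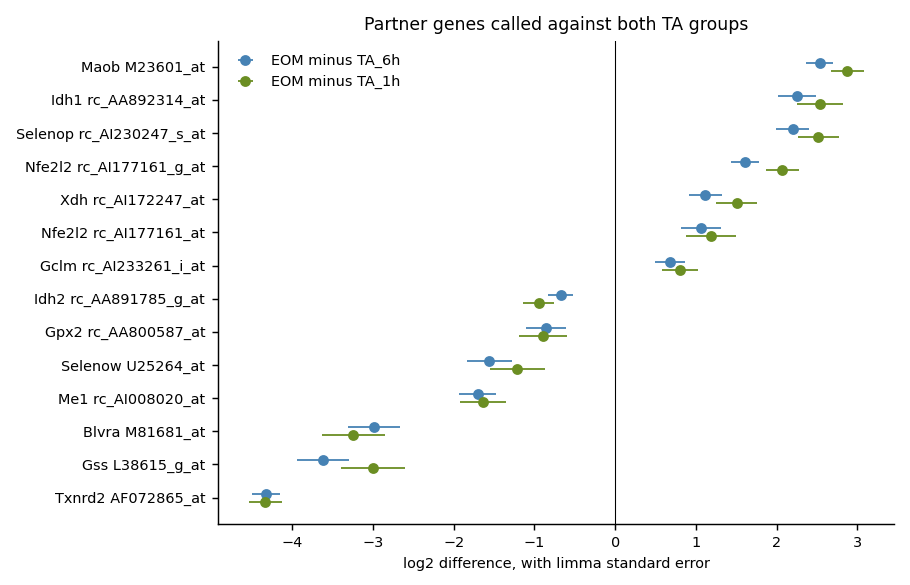
Log2 difference of the probe sets of other pathway genes with calls of equal direction in both EOM comparisons, for EOM minus TA_6h and EOM minus TA_1h, with limma standard errors as bars. Maob, Idh1, Selenop and Nfe2l2 lie to the right, and Txnrd2, Gss and Blvra, whose EOM arrays lie wholly or partly under the floor, lie farthest to the left.

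Markers of other cell types moved with the same comparisons, with each gene read by its brightest probe set. Over all tested probe sets 21.9% were higher and 25.3% lower than TA_6h, and 17.7% and 19.5% than TA_1h. Of 8 leukocyte genes, 6 were called higher in EOM than in TA_6h and 5 than in TA_1h, none lower. Of all 13 tested probe sets of these genes, 9 and 7 were higher and 1 was lower in each comparison. The summed intensity of the leukocyte genes was 9438 to 12747 in EOM, 2363 to 3490 in TA_6h and 2302 to 3046 in TA_1h. Of 8 fibroblast genes, 4 and 5 were higher and none lower, with sums of 61496 to 80013, 38353 to 72413 and 27018 to 38587. Of their 22 tested probe sets, 7 and 9 were higher and 1 and 0 lower. Gpx3, Prdx1 and Selenop were called higher in the same comparisons, and the part of those cells in the differences was not tested. Of 5 red blood cell genes, which matter here because red cells hold much catalase, none was higher and 2 were lower in each comparison, with sums of 27820 to 34410 in EOM, 36874 to 54194 in TA_6h and 35311 to 65527 in TA_1h. Of their 8 tested probe sets, 1 was higher and 2 were lower in each comparison. Of 6 endothelial genes none was called higher, 2 were lower than TA_6h and 3 lower than TA_1h, with Icam2 and Vwf at or under the floor on all EOM arrays. Of their 12 tested probe sets, 3 were higher and 4 lower than TA_6h, and 2 higher and 5 lower than TA_1h. Of 5 adipocyte genes 2 were higher and 2 lower than TA_6h, and 1 higher and 2 lower than TA_1h, with Lipe and Plin1 at or under the floor in EOM. Of their 8 tested probe sets, 2 were higher and 5 lower than TA_6h, and 1 higher and 5 lower than TA_1h. Of 4 liver and plasma genes 1 was higher and 2 were lower in each comparison. Of their 7 tested probe sets, 2 were higher and 2 lower than TA_6h, and 3 higher and 2 lower than TA_1h. The 8 skeletal muscle genes had overlapping sums in the 3 groups, with 1 higher and 4 lower than TA_6h, and 2 higher and 2 lower than TA_1h.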

How the data were processed

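Rat muscle RNA was measured on 16 single-colour arrays, and the authors deposited a linear-scale intensity for each probe set on each array. The authors had scaled them to a common level: the mean without the highest and lowest values lay between 801.1 and 801.8 on every array. How probes were summarised is not given in the sources that were used. Groups came from titles and descriptions. Arrays of the same group and number were averaged after log2, and TA_6h arrays 1 and 2, which have no letter, were joined with 1b and 2b, an inference.

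Tests ran on 7640 probe sets, those exceeding the floor (56.5) on 4 arrays or more, without array controls. The fit was limma 3.58.1 (lmFit and eBayes) in R 4.3.3 on all 3 groups, with 7 residual and 2.83 prior degrees of freedom, checked on simulated data. Figures used matplotlib 3.10.9 and Python 3.11.15. Gene names came from the platform annotation, where 7018 probe sets have 1 symbol. The members and lists were chosen with earlier results of these data known. Every member probe set is reported. Of the other pathway genes, those with a probe set called with equal direction in both EOM comparisons are named. The brightest probe set stands for a gene in list counts. In all, 27 alternatives were run, and the number of arrays limits the precision. For EOM against TA_6h, the fits without either TA_1h sample repeat the fit of the 2 groups alone and are not separate checks. A lone TA_1h sample adds no spread. Promoter letters are RefSeq's (GRCr8) and were used for letters only.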

Additional observations from a re-analysis of the deposited data

Results flagged for a closer look

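A single sample stood far from its group in 2 of 38 groups of 4 numbered samples, judged by whether its gap to the nearest sample exceeded Dixon's 95% critical value as a share of the group's whole range. Chance gives about 1 in 20 such groups. In Nqo1 J02679_s_at, EOM replicate 2 had an intensity of 2739, against 1117 for the next and 864 for the lowest, a gap of 0.865 of the range. The same sample was the highest EOM array in 12 of the 17 tested member probe sets, among them both Sod3, all 3 Cat and both Hmox1 probe sets, Sod2 and Prdx1. Those 17 read 9 genes. The share over all tested probe sets is not given here, so the count cannot be read as particular to the members. In Nqo1 M58495mRNA_at, TA_6h replicate 1 had an intensity of 45.0, against 19.8 for the next, a gap of 0.881 of the range. All of these values lie under the floor, and the probe set was not tested.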

How the results depend on the processing

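Over the 27 alternatives, of which the one without the TA arrays of low Gapdh ratio was chosen after seeing the data, Gpx3 D00680_at kept its call against both TA groups, and Cat M11670_at and Gpx1 X12367cds_s_at kept theirs against TA_6h. The cause of the changes below was not tested, except that the stricter filter tests fewer probe sets. Calls over the whole array numbered 3606 against TA_6h and 2843 against TA_1h. With a filter that asks for all 16 arrays over the floor these became 1927 and 1512, and leaving out 1 sample gave 3156 to 3514 and 1861 to 3045. Of the member probe sets, 7 and 5 were called. Leaving out 1 sample gave 4 to 7 and 2 to 6, the low ratio as a term gave 11 and 9, and against TA_1h a fit of the 2 groups alone and a fit without the low-ratio arrays each gave 8. Between the TA groups 0 probe sets were called, against 1 with the stricter filter, 8 with no filter, 1 with each array as a sample, 1 with the TA_6h arrays not joined, 45 without the low-ratio arrays, 681 with them alone (3 members), where TA_1h is 1 array assumed to vary like the other groups, 6 without the arrays of low Gapdh ratio, 57 with the low ratio as a term and 0 to 1 with 1 sample left out. Whether the shared numbers pair the samples was not settled. Deviations from the group means of same-numbered samples correlated weakly for EOM with TA_6h, at 0.021 to 0.105. They correlated at 0.037 and −0.044 for EOM with TA_1h, and at 0.389 and −0.418 for TA_6h with TA_1h. The 2 TA_1h samples deviate from their mean by equal and opposite amounts, so their correlations tend to opposite signs and cannot show a lack of pairing. With the number as a replicate block 3507 and 2540 probe sets were called, with 6 and 4 members, and 0 between the TA groups. The split of calls against TA_6h, 1671 higher and 1935 lower, moved to 1674 and 2792 when the floor was the 10th percentile and turned to 1576 and 1434 at the 40th, 1862 and 1614 with equal medians and 1136 and 791 with the stricter filter. Against TA_1h, 1354 and 1489 likewise became 1379 and 2253, 1310 and 1162, 1493 and 1232, and 923 and 589.

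Signs turned only in comparisons of members that were not called in the main test. For EOM minus TA_6h, Cat rc_AA926149_at was 0.095 with the 10th percentile floor, 0.094 with quantile normalization and 0.097 without the low-ratio arrays. Cat rc_AA926149_g_at was 0.047 with equal medians, 0.00798 with arrays not joined, 0.15 without the low-ratio arrays, 0.047 with the low ratio as a term, and −0.18 to 0.063 with 1 sample left out. Sod1 Y00404_s_at was 0.029 with equal medians, 0.13 with low-ratio arrays alone and −0.19 to 0.012 with 1 sample left out. Sod2 was −0.096 without the low-ratio arrays and −0.021 with the term, and Sod3 X68041cds_s_at 0.39 with those arrays alone. For EOM minus TA_1h with the low-ratio array alone, Sod1 M25157mRNA_i_at was 0.36, Sod3 X68041cds_s_at 0.39, Hmox1 J02722cds_at 0.49 and Gpx1 X07365_s_at −0.66, all against 1 array. Gpx1 X07365_s_at ran from −0.22 to 0.64 with 1 sample left out and was −0.031 without the arrays of low Gapdh ratio, where Sod1 M25157mRNA_i_at (0.25), Sod1 Y00404_s_at (0.0071), Sod2 (0.059) and Cat M11670_at (0.57) turned between the TA groups. For TA_6h minus TA_1h, Sod2 was 0.12 with arrays not joined, 0.26 with the replicate block, 0.40 without the low-ratio arrays, 0.18 with the term, and −0.34 to 0.19 with 1 sample left out. Cat M11670_at was 0.084 with the block, 0.82 with low-ratio arrays alone, 0.12 with the term, and −0.97 to 0.30 with 1 sample left out. Sod1 Y00404_s_at was 0.021 and Sod3 Z24721_at −0.19 without the low-ratio arrays. Sod1 M25157mRNA_i_at was 0.42 and Nqo1 J02679_s_at −0.050 with those arrays alone, and Sod1 M25157mRNA_i_at 0.021 with the term. With 1 sample left out, Sod1 M25157mRNA_i_at ran from −0.35 to 0.10, Sod1 M21060_s_at from −0.23 to 0.024, Sod3 Z24721_at from −0.14 to 0.39, Gpx1 X07365_s_at from −0.53 to 0.34, Gpx3 D00680_at from −0.17 to 0.93 and Hmox1 J02722cds_at from −0.17 to 0.78.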
